A study of Mus musculus with 21 samples.

Results

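Ruxolitinib-treated Ba/F3 cells were compared with DMSO-treated Ba/F3 cells after 6 h, to describe which transcripts were lower or higher while JAK1 and JAK2 were inhibited. The comparison used 6 of the 21 libraries of the series, 3 from each group. Ba/F3 is a mouse pro-B cell line that depends on interleukin-3 (IL-3), and all 6 libraries came from cells that carried an introduced JAK2 with the V617F change, so no library of this comparison was free of the mutant kinase. The ruxolitinib-treated cells received 1 μM ruxolitinib for 6 h and the DMSO-treated cells received the solvent for 6 h. The other 5 groups of the series (CHZ868 for 6 h, and cells washed after ruxolitinib, CHZ868 or DMSO) were left aside, except that the CHZ868-treated values are given beside a few genes. The sources used here do not say whether replicates were separate cultures, so the p-values below measure only the spread between these libraries, which may be technical. A line that grows on an introduced kinase is a model of JAK2 signalling in culture and holds none of the other cells of a marrow.

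JAK kinases are bound to cytokine receptors and, once active, phosphorylate STAT transcription factors, which dimerise, enter the nucleus and bind short palindromic elements. STAT5 is the main STAT downstream of IL-3 and erythropoietin receptors and drives survival and growth genes as well as the SOCS and CIS proteins that shut the receptor off again. Interferon receptors also signal through JAK kinases and STAT factors, and drive antiviral genes, among them large families of GTPases that attack membranes around pathogens. The V617F change in the pseudokinase domain of JAK2 leaves the kinase active without cytokine, and ruxolitinib is an ATP-competitive inhibitor of JAK1 and JAK2 used in myeloproliferative neoplasms.

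The ruxolitinib-treated and the DMSO-treated libraries were deposited in separate tables of log2 CPM (read counts scaled to the depth of the library). The tables are on different scales, and the table cannot be told apart from the treatment. For the 11624 genes in both tables, each library's median was subtracted, and a difference is the ruxolitinib-treated mean minus the DMSO-treated mean on this log2 scale, with the standard error (SE) of the difference over 3 libraries a group. A gene was called when it differed by at least 1 log2 unit and all libraries of a group lay above all libraries of the other. This is a description with no test. Beside it stands limma-trend on the whole reads that could be recovered from the tables, with Benjamini-Hochberg adjustment over the 11624 genes, and only genes with an adjusted p under 0.05 are said to have risen or fallen. The read counts given below are these recovered reads, always in the order of replicates 1, 2 and 3. The 6 libraries held 8308687 to 10266437 reads on listed genes.

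By this rule 329 of the 11624 genes, 2.83%, were called lower in ruxolitinib-treated cells, and 34, 0.292%, were called higher. Of the 329 genes called lower, 328 also fell by limma-trend, and of the 34 called higher, 33 rose. The sizes were as unequal as the counts. The difference reached 2 log2 units in 90 of the genes called lower, 3 in 35 and 4 in 11, and 2 in 0 of the genes called higher, the largest of which stood at 1.74. Groups did not overlap in 2335 genes (20.1%) that were lower and 2855 genes (24.6%) that were higher, a split that turned to 2719 lower and 2436 higher with TMM scaling in place of the median, and limma-trend passed 1606 genes (13.8%) in the lower and 1228 (10.6%) in the higher direction. Small differences were thus spread over both directions, and differences of at least 1 log2 unit lay mostly on the lower side. Counts of list members that fell, rose or were called are to be read against the shares of all genes given here. The median difference over all genes was 0.04, with 90% of genes between -0.74 and 0.56.

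**Figure D1:**
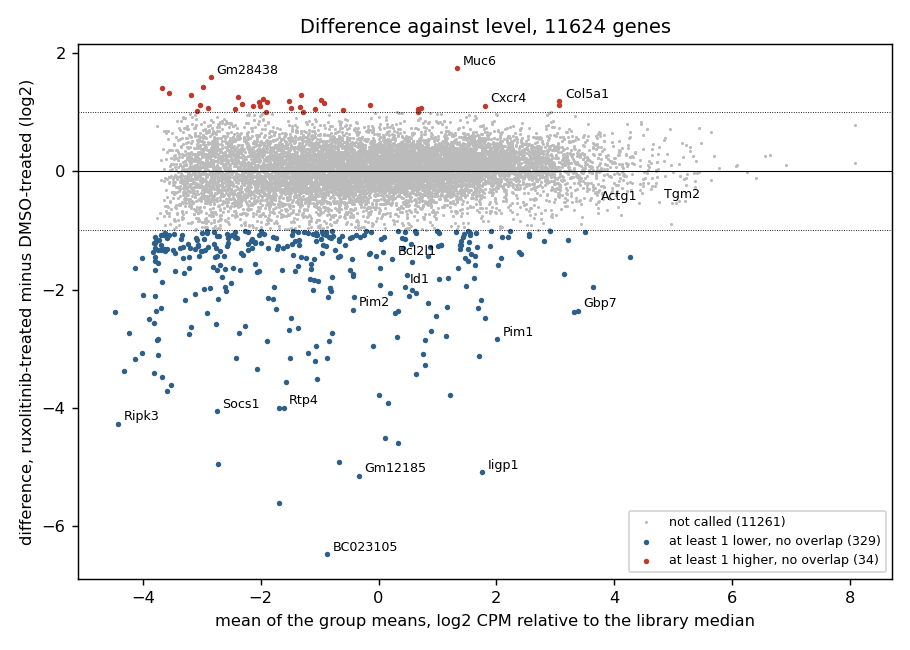
Each point is 1 of the 11624 genes, with the mean of the group means on the horizontal axis (log2 CPM relative to the library median) and the difference, ruxolitinib-treated minus DMSO-treated, on the vertical axis (log2). Blue points are the 329 genes called lower and red points the 34 called higher, dotted lines mark 1 log2 unit in either direction, and the blue points reach -6.48 while the red ones stop at 1.74.

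Ruxolitinib-treated replicate 2 stood apart from replicates 1 and 3. Among the 10906 genes with at least 50 reads on average, 190 and 159 differed by at least 1 log2 unit between it and replicates 1 and 3, against 12 between replicates 1 and 3 and 10 or 11 between DMSO-treated libraries. Genes of the mitochondrial genome took 3.53% of its reads, against 1.70% and 1.73% in the other ruxolitinib-treated libraries and 1.37% to 1.43% in the DMSO-treated ones. Cytosolic ribosomal protein genes took 3.48%, against 4.52% and 4.70%, and 4.55% to 4.87%. Without this library 325 genes were called lower and 25 higher, of which 290 and 15 had been called with it, so the genes called higher rest on it more than those called lower. Genes past limma-trend numbered 4244 (2245 lower, 1999 higher) without it, against 2834, so counts of genes that fell or rose are mostly larger without it. Values without it are given where they move a called gene, a median or a count most.

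**Figure D2:**
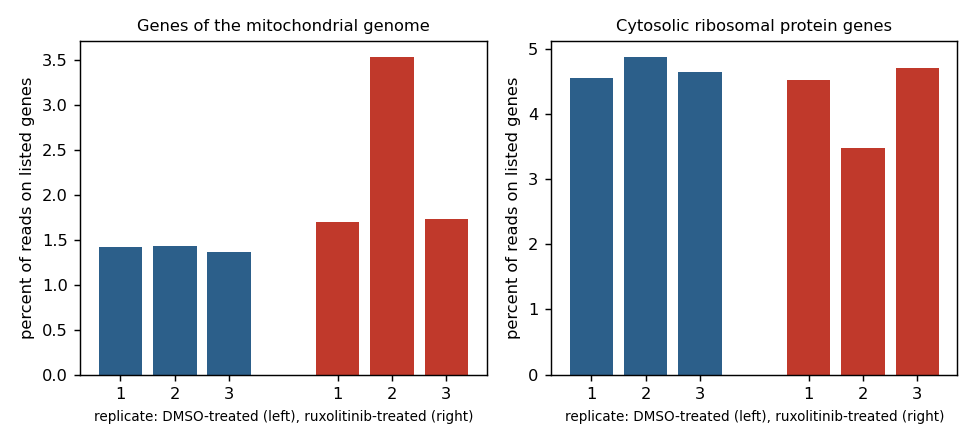
Bars give the percentage of reads on listed genes that fell on the mitochondrial genome (left) and on cytosolic ribosomal protein genes (right) in each DMSO-treated library (blue) and each ruxolitinib-treated library (red). Ruxolitinib-treated replicate 2 is the highest bar on the left, at 3.53%, and the lowest on the right, at 3.48%.

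The cell type label was checked against markers. Of 15 pro-B cell markers only Cd79a, Cd79b and Ptprc had values, while Pax5, Ebf1, Rag1, Vpreb1 and Igll1 were listed in neither table after the authors' filter on low expression. The pro-B markers summed to 197 to 212 CPM in ruxolitinib-treated and 200 to 207 CPM in DMSO-treated libraries. Of 7 markers of IL-3-dependent progenitors 5 had values, among them the IL-3 receptor chains Il3ra, Csf2rb and Csf2rb2, and their sum was 4239 to 4943 CPM in ruxolitinib-treated and 4572 to 4687 CPM in DMSO-treated libraries. Few markers of other cells had values, but the mast cell and basophil sum lay above the pro-B sum, so these sums do not single out the pro-B label. Mast cell and basophil markers (3 of 13 with values: Fcer1g, Srgn and Gzmb) summed to 268 to 410 against 311 to 329 CPM, T and NK cell markers (1 of 11, Lck) to 3.80 to 6.00 against 5.86 to 6.86 CPM, and 0 of 10 fibroblast and epithelial markers had a value. Macrophage and neutrophil markers (4 of 14: Csf1r, Cd68, Prtn3 and Fcgr1) summed to 38.4 to 62.4 CPM against 78.6 to 79.8 CPM. Of these 4 only Fcgr1, an Fc receptor gene that interferon also induces, was called, with 77, 54 and 67 reads against 210, 213 and 187. In bulk RNA, fewer cells of a type and less RNA per cell cannot be told apart.

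STAT dimers bind the element TTCNNNGAA (GAS, read the same on both strands), and 8.30% of the 32851 promoter windows of RefSeq (GRCm38.p6, from 250 bases before to 50 after a gene's start) hold it. Windows were at hand for only 8436 of the 11624 genes, and 8.30% of these genes hold it. Of the 219 genes called lower with a window 37 hold it, or 16.9%, and of the 18 called higher 0. The difference between these shares was not tested, and genes without a window are missing from them. Of 8 called STAT5 target and feedback genes with a window only Cish and Socs3 hold it, and the windows of Pim1, Pim2, Socs1, Spred2, Bcl2l1 and Lif do not, nor does that of Ripk3 among the largest falls, which says only that these letters are not in those windows. Of the genes described below, the windows of the STAT5 feedback genes Cish and Socs3 and of 4 of the genes with the largest falls are printed. They were chosen because they hold GAS, to show where it lies, with each GAS match in capitals and the sequence on the gene's own strand. Those are Cish (chr9:107296409-107296708, plus strand), Socs3 (chr11:117969317-117969616, minus strand), Tgtp1 (chr11:48992197-48992496, minus strand), Tgtp2 (chr11:49064163-49064462, minus strand), Gm12250 (chr11:58183593-58183892, plus strand) and Serpina3f (chr12:104214294-104214593, plus strand).
Cish: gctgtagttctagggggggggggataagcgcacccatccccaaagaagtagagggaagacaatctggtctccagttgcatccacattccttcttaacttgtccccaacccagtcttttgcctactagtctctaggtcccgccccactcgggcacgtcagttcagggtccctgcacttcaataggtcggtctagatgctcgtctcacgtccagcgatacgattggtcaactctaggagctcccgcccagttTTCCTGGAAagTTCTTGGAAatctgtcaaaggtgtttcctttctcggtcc
Socs3: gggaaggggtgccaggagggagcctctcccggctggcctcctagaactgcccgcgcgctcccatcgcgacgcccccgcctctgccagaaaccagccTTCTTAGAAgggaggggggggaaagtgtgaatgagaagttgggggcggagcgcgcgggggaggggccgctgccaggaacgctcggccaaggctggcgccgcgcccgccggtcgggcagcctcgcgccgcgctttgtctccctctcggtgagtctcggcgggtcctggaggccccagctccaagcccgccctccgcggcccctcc
Tgtp1: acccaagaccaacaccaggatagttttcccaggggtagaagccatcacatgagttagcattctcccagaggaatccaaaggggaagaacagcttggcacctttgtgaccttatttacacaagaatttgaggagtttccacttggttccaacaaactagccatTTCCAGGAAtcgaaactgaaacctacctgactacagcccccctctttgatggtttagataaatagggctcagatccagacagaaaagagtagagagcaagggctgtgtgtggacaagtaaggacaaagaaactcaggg
Tgtp2: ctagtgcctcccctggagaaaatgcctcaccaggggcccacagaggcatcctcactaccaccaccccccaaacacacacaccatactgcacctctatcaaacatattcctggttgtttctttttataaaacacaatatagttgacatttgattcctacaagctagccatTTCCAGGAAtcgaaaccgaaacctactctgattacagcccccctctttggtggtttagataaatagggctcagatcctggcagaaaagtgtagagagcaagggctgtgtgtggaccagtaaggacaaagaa
Gm12250: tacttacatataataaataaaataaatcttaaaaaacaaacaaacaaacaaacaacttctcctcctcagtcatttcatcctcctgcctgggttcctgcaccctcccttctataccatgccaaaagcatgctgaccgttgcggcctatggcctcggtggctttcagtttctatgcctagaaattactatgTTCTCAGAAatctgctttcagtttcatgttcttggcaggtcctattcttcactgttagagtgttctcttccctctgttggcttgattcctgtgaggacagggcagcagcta
Serpina3f: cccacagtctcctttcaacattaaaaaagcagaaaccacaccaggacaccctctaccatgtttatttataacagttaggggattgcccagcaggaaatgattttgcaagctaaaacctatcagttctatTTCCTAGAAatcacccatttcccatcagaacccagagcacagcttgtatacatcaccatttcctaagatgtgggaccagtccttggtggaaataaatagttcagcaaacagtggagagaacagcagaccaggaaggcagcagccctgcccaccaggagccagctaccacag
The Cish window holds 2 matches, beginning at the start base and 11 bases after it. The match begins 154 bases before the start in Socs3, 88 in Tgtp1, 81 in Tgtp2, 61 in Gm12250 and 121 in Serpina3f. The near-identical genes Tgtp1 and Tgtp2 carry it with the same letters at nearly the same distance. A match describes letters and is no measurement of binding. Other elements in these windows were not marked. Among them is ISRE, with 1 match in Tgtp1, 1 in Tgtp2, 2 in Gm12250 and 0 in Cish, Socs3 and Serpina3f.

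STAT5 target and JAK-STAT feedback genes were lower after ruxolitinib. Of 19 measured genes of this list 11 were called lower and 0 higher, and 16 fell by limma-trend. The median difference was -1.26, against 0.04 over all genes. The list's genes together took 0.118% to 0.125% of reads in ruxolitinib-treated and 0.243% to 0.254% in DMSO-treated libraries. The genes were chosen with results of these data known, so the list is no independent evidence of its direction.

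Among the feedback genes, Socs1, whose product binds and blocks JAK kinases, had 11, 16 and 9 reads in ruxolitinib-treated and 184, 249 and 226 in DMSO-treated cells. Socs1 fell by 4.06 ± 0.22 (SE, n = 3 and 3), or 16.7-fold (limma-trend adjusted p = 7.68e-07). Cish, which encodes the CIS protein that competes for STAT5 docking sites, had 670, 689 and 683 against 1481, 1830 and 1601 reads. The fall of Cish was 2.49-fold, with a difference of -1.32 ± 0.03 (limma-trend adjusted p = 7.76e-07), so the replicates of this gene lay closer together than those of Socs1. Socs3 had 31, 21 and 50 against 80, 95 and 85 reads and a difference of -1.43 ± 0.34 (limma-trend adjusted p = 0.00483). Socs2, whose product tempers cytokine and growth hormone receptors, had 277, 244 and 268 against 406, 419 and 414 reads, a difference of -0.71 that passed limma-trend (adjusted p = 0.000985) but not the rule of 1 log2 unit. All 4 suppressor genes were therefore lower in every ruxolitinib-treated library, in the order Socs1, Socs3, Cish, Socs2 by size. The SEs of Socs3 and Cish leave the order of those 2 open.

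Kinase and regulator genes under STAT5 fell as clearly. Pim1, a serine/threonine kinase that promotes survival of haematopoietic cells, had 627, 515 and 560 reads against 3487, 4239 and 3998. Its difference was -2.84 ± 0.08, a 7.15-fold fall (limma-trend adjusted p = 1.12e-08). Pim1 lies at chr17:29490753-29496112 on the plus strand (GENCODE vM21, GRCm38), where exons of Gm26885 overlap it on the other strand. Gm26885 (chr17:29446919-29491925) had 135, 99 and 143 against 885, 1011 and 924 reads. Since the counting strand is not given in the sources used here, reads of the stretch the 2 genes share cannot be told apart. Exons on the other strand also overlap, among other genes, Cish (Gm17040), Irf1 (Gm17334), Usp18 (Gm44148), Nlrc5 (9330175E14Rik) and Rnf213 (A930037H05Rik). Those partner genes were called lower too. The related kinase gene Pim2 (chrX:7878262-7883432, plus strand) had 143, 98 and 126 against 553, 681 and 566 reads, a 5.08-fold fall (limma-trend adjusted p = 2.05e-06). Id1, a partner that keeps basic helix-loop-helix factors off DNA (chr2:152736251-152737410, plus strand), had 264, 257 and 251 against 869, 1081 and 941 reads. Id1 fell 3.86-fold, with a difference of -1.95 ± 0.03 (limma-trend adjusted p = 1.5e-07). In Pim1, Pim2 and Id1 alike, every ruxolitinib-treated library lay far below the lowest DMSO-treated one.

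Secreted factors and cell-cycle or survival genes of the list were lower in part. The gp130 cytokine Osm had 50, 41 and 54 against 212, 341 and 190 reads (difference -2.33 ± 0.24). Lif, of the same cytokine family, had 69, 81 and 68 against 158, 183 and 169 reads (difference -1.26 ± 0.08). Bcl2l1, which encodes the anti-apoptotic BCL-XL, had 294, 224 and 274 against 642, 751 and 726 reads and fell 2.79-fold (limma-trend adjusted p = 1.3e-05). The D-type cyclin gene Ccnd2 had 1510, 1453 and 1584 against 2774, 3345 and 3052 reads and fell 2.10-fold (limma-trend adjusted p = 4.15e-06). Its relative Ccnd3, with 1672, 1638 and 1826 against 1432, 1823 and 1582 reads, overlapped between the groups (difference 0.03 ± 0.06), as did Gadd45g and Lrrc32. The other anti-apoptotic genes moved less than Bcl2l1. Bcl2 fell by 0.28 ± 0.03 and Mcl1 by 0.20 ± 0.07 (limma-trend adjusted p = 0.0103 and 0.0397). Of the 10 measured members of the BCL2 family, Bcl2l1, Bcl2 and Mcl1 fell and 0 rose, against 4 and 1 without ruxolitinib-treated replicate 2, and the pro-apoptotic Bcl2l11, with 589, 479 and 559 against 475, 509 and 437 reads, overlapped between the groups. Another member, Bmf, was listed only for the ruxolitinib-treated libraries, with 26, 42 and 43 reads, and was left out of the comparison.

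Myc varied between the ruxolitinib-treated libraries. It had 1473, 3090 and 1707 reads against 3246, 4114 and 3891, and the value of 3090 belonged to replicate 2, which stood apart in other respects too. Its difference was -0.97 ± 0.33 (limma-trend adjusted p = 0.0064), just short of the rule, and -1.29 without that library. The part of that library's mitochondrial and ribosomal reads in this value was not tested.

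**Figure D3:**
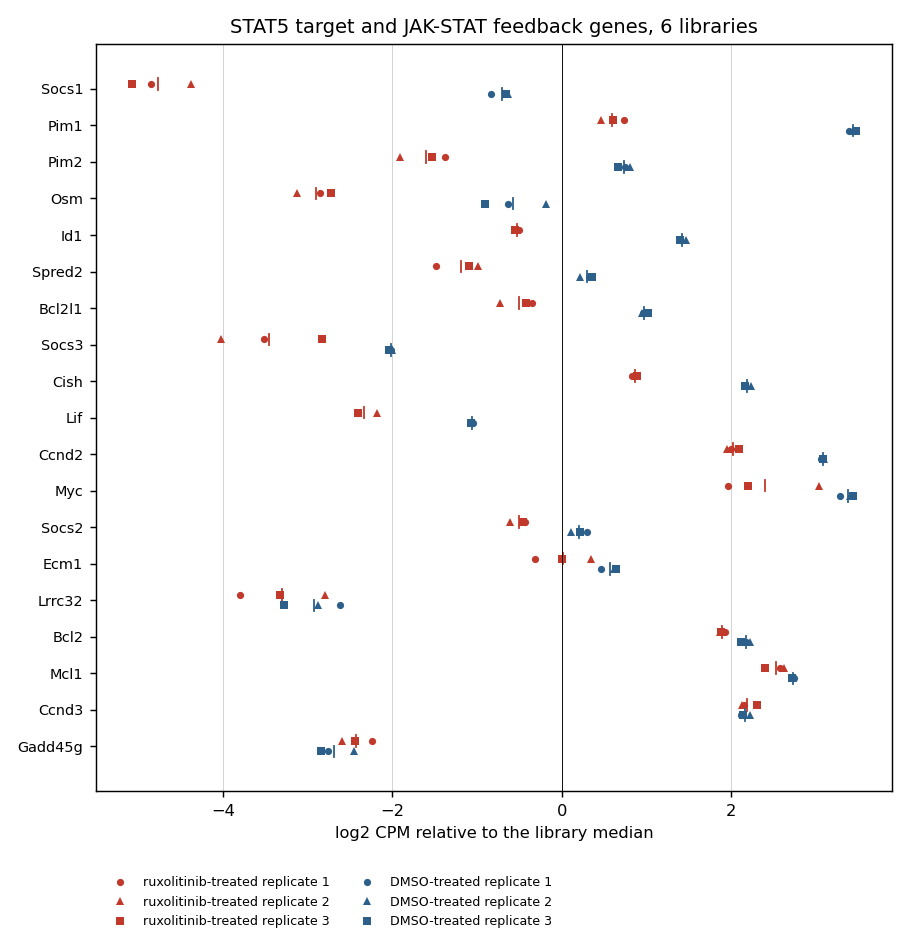
The 19 measured STAT5 target and JAK-STAT feedback genes, ordered by difference, with log2 CPM relative to the library median on the horizontal axis. Red symbols are ruxolitinib-treated and blue symbols DMSO-treated libraries, with a circle, triangle and square for replicates 1, 2 and 3 and a tick for each group mean. The red and blue symbols are fully apart from Socs1 down to Ecm1, overlap for Lrrc32, Ccnd3 and Gadd45g, and the triangle of Myc lies close to the blue symbols.

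Interferon-inducible genes held the largest falls. Of the 15 genes with the largest falls 11 encode interferon-induced GTPases or their pseudogenes, and of the 35 genes called lower by at least 3 log2 units 21 belonged to the interferon lists (GTPases, interferon-stimulated genes and MHC class I presentation). These lists held 70 of all 329 genes called lower. They cover 28, 48 and 21 of the 11624 genes and were chosen with results of these data known, so the counts are no independent evidence. No interferon was added in the treatments the sources describe.

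The GTPase list covers the immunity-related GTPases (IRG), which coat and break pathogen vacuoles, the guanylate-binding proteins (GBP) and the Mx proteins. Of 28 measured genes 27 were called lower and the same number fell by limma-trend, with a median difference of -3.21. Together they took 0.605% to 0.619% of reads in DMSO-treated and 0.0800% to 0.0853% in ruxolitinib-treated libraries. The groups overlapped only for 9930111J21Rik2, which had 87, 202 and 94 against 153, 205 and 206 reads (difference -0.70 ± 0.39, limma-trend adjusted p = 0.0671), and its near copy 9930111J21Rik1 was called lower. Without ruxolitinib-treated replicate 2, which held the 202 reads, 28 of the 28 were called lower.

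Iigp1, an effector IRG, had 212, 223 and 210 reads in ruxolitinib-treated and 6489, 7878 and 6961 in DMSO-treated cells. It fell 34.0-fold, with a difference of -5.09 ± 0.03 (limma-trend adjusted p = 2.96e-11). The largest fall of all genes was that of BC023105, annotated as a processed pseudogene and a near copy of the IRG gene Gm4841, with 24, 21 and 15 against 1675, 1988 and 1913 reads (difference -6.48 ± 0.18). Gm4841 itself had 91, 91 and 100 against 2135, 2428 and 2134 reads (difference -4.60 ± 0.06). The reads of such copies may have been split between them by the counting, so values of single copies are uncertain, and the same holds for Tgtp1 with Tgtp2 and for Gbp4, Gbp6, Gbp8, Gbp9, Gbp10 and Gbp11. Gm12250, whose window is printed above, had 14, 8 and 26 against 704, 847 and 770 reads, a 48.6-fold fall (limma-trend adjusted p = 7.76e-07). Tgtp1 (chr11:48985327-48994172, minus strand, sharing exons with Gm12185) had 87, 87 and 75 against 1708, 2030 and 1836 reads, and Tgtp2 (chr11:49057194-49064206, minus strand) had 289, 213 and 200 against 2871, 3296 and 3114. The copies differed from each other in size, by -4.51 ± 0.06 for Tgtp1 and -3.79 ± 0.16 for Tgtp2, while in both no ruxolitinib-treated library came near a DMSO-treated one.

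Regulatory IRG genes, whose products keep the effector GTPases inactive on the cell's own membranes, fell less than Iigp1. Irgm1 had 631, 509 and 516 against 2803, 2996 and 3097 reads (difference -2.49 ± 0.11). Irgm2 had 217, 213 and 193 against 1734, 2162 and 1925 reads (difference -3.27 ± 0.05). Igtp, also called Irgm3, had 460, 342 and 449 against 3129, 3676 and 3587 reads (difference -3.12 ± 0.14). Each differed from the value of Iigp1 by more than the SEs. The GBP genes spread over a wider range, from -4.01 ± 0.37 for Gbp11 to -1.64 ± 0.06 for Gbp5. Gbp7 had 1607, 2061 and 1573 against 8176, 8977 and 8443 reads, a 5.12-fold fall (limma-trend adjusted p = 8.5e-08), and Gbp2 had 1925, 1764 and 1742 against 5443, 6381 and 5632 (difference -1.74 ± 0.05). The antiviral dynamin-like gene Mx1 was lowly counted in either group, with 34, 36 and 28 against 89, 114 and 105 reads (difference -1.65 ± 0.11).

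**Figure D4:**
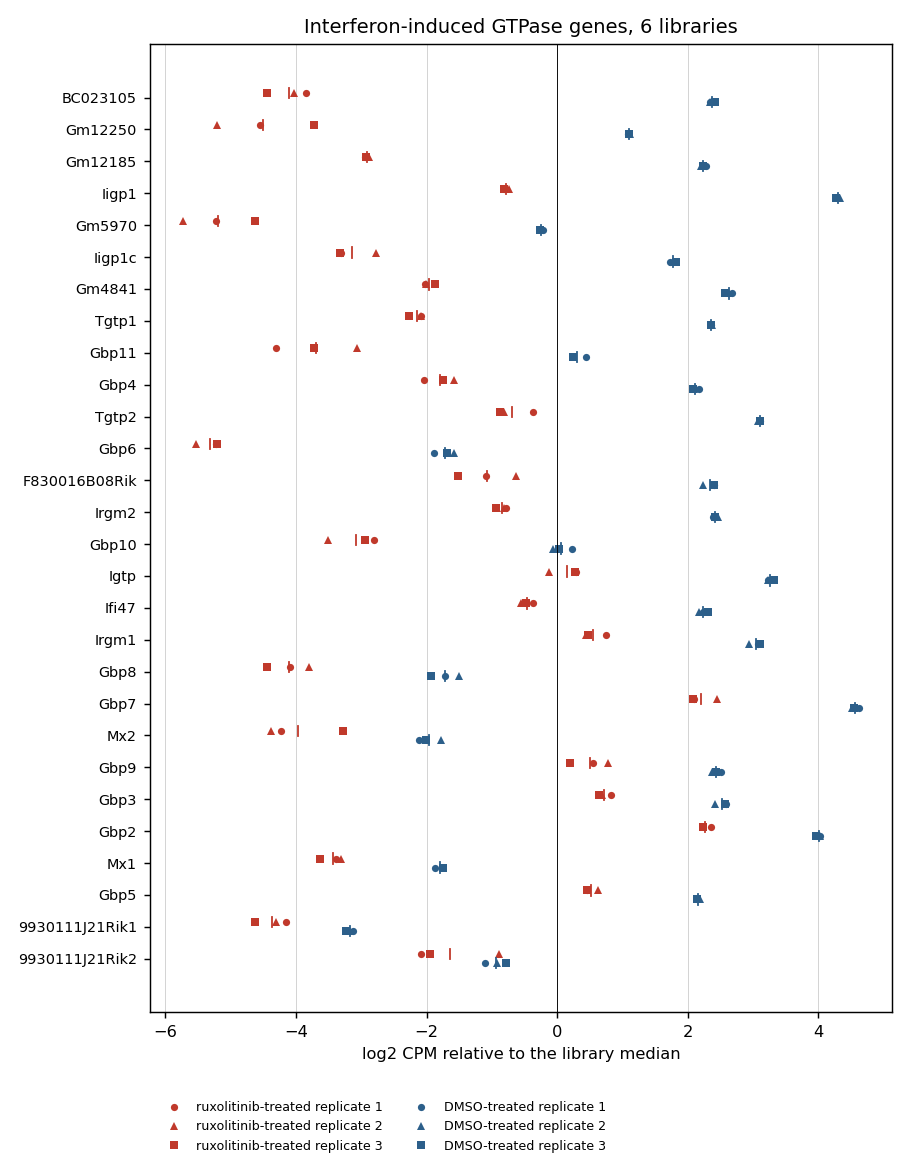
The 28 measured interferon-induced GTPase genes, ordered by difference, with log2 CPM relative to the library median on the horizontal axis. Red symbols are ruxolitinib-treated and blue symbols DMSO-treated libraries (circle, triangle and square for replicates 1, 2 and 3, tick for the group mean), and red and blue are apart in 27 genes and overlap in the bottom one, 9930111J21Rik2, through replicate 2.

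The other interferon-stimulated genes fell almost as uniformly. Of 48 measured genes 38 were called lower and 0 higher, 46 fell and 1 rose by limma-trend, and the median difference was -1.71. They took 0.735% to 0.746% of reads in DMSO-treated and 0.385% to 0.458% in ruxolitinib-treated libraries. Transcription factors of the interferon response were among them. Stat2 had 789, 848 and 835 against 1486, 1732 and 1670 reads (difference -1.04 ± 0.04), and Irf9 had 207, 210 and 164 against 641, 744 and 742 (difference -1.93 ± 0.11). Irf1, a factor that interferon-γ induces, had 340, 336 and 462 against 1722, 1848 and 1781 reads, a 4.93-fold fall (limma-trend adjusted p = 8.41e-07), and Irf7, which amplifies interferon production, had 185, 225 and 184 against 1004, 1028 and 977 (difference -2.39 ± 0.11). Every transcription factor named here was thus lower in each ruxolitinib-treated library.

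Effectors and feedback genes of the interferon response showed the same direction. Isg15, a ubiquitin-like modifier, had 21, 15 and 31 against 200, 247 and 163 reads (difference -3.16 ± 0.32). Usp18, which removes ISG15 and damps the type I receptor, had 65, 50 and 51 against 266, 350 and 296 reads (difference -2.47 ± 0.12). Zbp1, a sensor of nucleic acids that recruits RIPK3, had 233, 231 and 185 against 1673, 1861 and 1784 reads (difference -3.09 ± 0.10). Ripk3 itself, the kinase of necroptosis, was among the 15 largest falls. It had only 3, 1 and 2 against 76, 64 and 76 reads, and the ratio of its summed reads per depth, DMSO-treated over ruxolitinib-treated, was 39.0 with an exact 95% counting interval of 17.6 to 107. Rtp4, an interferon-induced chaperone of receptors, had 38, 36 and 17 against 432, 505 and 475 reads (difference -4.00 ± 0.34), and Slfn2, of the Schlafen family, had 5, 6 and 9 against 92, 124 and 106 (difference -3.72 ± 0.20). The exceptions were Cxcl10 and Ly6e. Cxcl10, a chemokine gene, had 14, 53 and 21 against 39, 43 and 42 reads, with replicate 2 above all controls. Ly6e, a surface protein gene, rose by 0.48 ± 0.18 (limma-trend adjusted p = 0.0342), or 0.31 without replicate 2.

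Class I MHC presentation genes moved in part. Of 21 measured genes 5 were called lower and 0 higher, 13 fell and 1 rose by limma-trend, and the median difference was -0.39. Without ruxolitinib-treated replicate 2, 15 fell and 2 rose, 4 were called lower, and the median was -0.25. Nlrc5, the transactivator of class I genes, had 857, 826 and 953 against 2314, 2725 and 2594 reads and fell 3.01-fold (limma-trend adjusted p = 5.79e-07). The non-classical class I gene H2-T24 had 456, 410 and 356 against 1265, 1511 and 1392 reads (difference -1.83 ± 0.10). Tapbpl, a peptide editor, had 126, 167 and 139 against 385, 376 and 357 reads (difference -1.43 ± 0.14). The classical heavy chains and their partner did not follow. H2-K1 had 1502, 1560 and 1605 against 1300, 1405 and 1276 reads (difference 0.17 ± 0.06, limma-trend adjusted p = 0.264), and H2-D1 had 2917, 1582 and 2885 against 2763, 3408 and 2820 (difference -0.39 ± 0.30, or -0.10 without replicate 2). B2m, the light chain, had 13974, 20880 and 15289 against 10721, 13862 and 13257 reads (difference 0.33 ± 0.18, limma-trend adjusted p = 0.143). The immunoproteasome gene Psmb10 fell, with 585, 358 and 611 against 1069, 1287 and 1110 reads (difference -1.25 ± 0.25), while Psmb9 was at 1950, 1108 and 2018 against 1991, 2466 and 2032 (difference -0.46 ± 0.29, limma-trend adjusted p = 0.0893). In H2-D1, Psmb9 and Psmb10 the lowest value was that of replicate 2. The chaperone gene Calr rose by 0.58 ± 0.07 (limma-trend adjusted p = 0.00126).

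Kinases, STAT factors and receptors that carry the signal moved in both directions. Of 21 measured JAK, STAT and receptor genes 2 were called lower and 0 higher. By limma-trend 4 fell and 5 rose, beside 13.8% and 10.6% of all genes, with a median difference of 0.13. Without ruxolitinib-treated replicate 2 these were 6, 7 and 0.0632, and the median was 0.060 under quantile normalization. Jak2 had 2687, 2754 and 2311 against 2215, 2510 and 2386 reads, overlapping between the groups (difference 0.06 ± 0.07, limma-trend adjusted p = 0.886). How far reads of the introduced gene were counted under Jak2 is not given in the sources used here. Jak1 had 1932, 2216 and 1920 against 1632, 1926 and 1771 reads (difference 0.13 ± 0.06, limma-trend adjusted p = 0.451). Among the genes that fell were Stat2, given above, Jak3, by 0.33 ± 0.06, and the interleukin-4 receptor gene Il4ra, by 0.71 ± 0.08.

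Those that rose were the STAT5 genes and receptor chains. Stat5a had 1540, 2013 and 1594 against 1039, 1217 and 1228 reads (difference 0.50 ± 0.13), and Stat5b had 2496, 2188 and 2480 against 1502, 1794 and 1721 (difference 0.46 ± 0.07). The erythropoietin receptor gene Epor had 352, 287 and 309 against 140, 199 and 166 reads, a 1.80-fold rise (limma-trend adjusted p = 0.00197). Ifngr1, the ligand-binding chain of the interferon-γ receptor, rose by 0.73 ± 0.09 and Ifnar1, of the type I receptor, by 0.52 ± 0.05. Their partner chains Ifngr2 (difference -0.01 ± 0.10) and Ifnar2 (difference -0.04 ± 0.10) overlapped between the groups. None of these 4 interferon receptor chains fell by limma-trend. Csf2rb, the shared signalling chain of the IL-3 receptor, had 13662, 16438 and 14194 against 14502, 17116 and 15768 reads (difference -0.16 ± 0.08), again with overlap.

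Of 12 measured phosphatases and adaptors that restrain JAK2, 0 were called in either direction, 1 fell and 3 rose, or 2 and 3 without replicate 2. Among all genes 13.8% fell and 10.6% rose with all libraries. Ptpn6, which encodes the phosphatase SHP-1, had 1169, 1515 and 1303 against 571, 800 and 729 reads and rose 1.83-fold (limma-trend adjusted p = 0.000528). Sh2b3, the gene of the adaptor LNK, had 456, 555 and 483 against 640, 871 and 723 reads and fell by 0.63 ± 0.10. Ptpn1, Ptpn2 and Ptpn11, which encode other phosphatases of the pathway, overlapped between the groups, with differences of 0.14, -0.03 and -0.02. The SUMO ligase genes Pias1 and Pias3 rose by 0.43 and 0.60.

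Feedback genes of the ERK pathway fell beside those of STAT5. Of 24 measured ERK feedback and immediate early genes 9 were called lower and 0 higher, 15 fell and 1 rose, with a median difference of -0.87. Dusp6, the phosphatase of ERK, had 200, 173 and 152 against 1146, 1239 and 1162 reads and fell 7.01-fold (limma-trend adjusted p = 5.79e-08). Etv5, an ETS factor downstream of ERK, had 53, 42 and 55 against 318, 363 and 276 reads (difference -2.68 ± 0.16). The zinc finger genes Egr2 and Egr3 were at 5, 4 and 10 against 50, 88 and 56, and at 10, 14 and 4 against 81, 61 and 69 reads (differences -3.07 ± 0.35 and -2.83 ± 0.45). Spred2, an inhibitor of RAS signalling, had 133, 187 and 171 against 414, 451 and 456 reads (difference -1.49 ± 0.15). Not all immediate early genes took part. Junb fell by 1.11 ± 0.03 and Fos by 0.87 ± 0.11, Jun rose by 0.49 ± 0.09, and the dual-specificity phosphatase gene Dusp1 stood at 0.07.

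**Figure D5:**
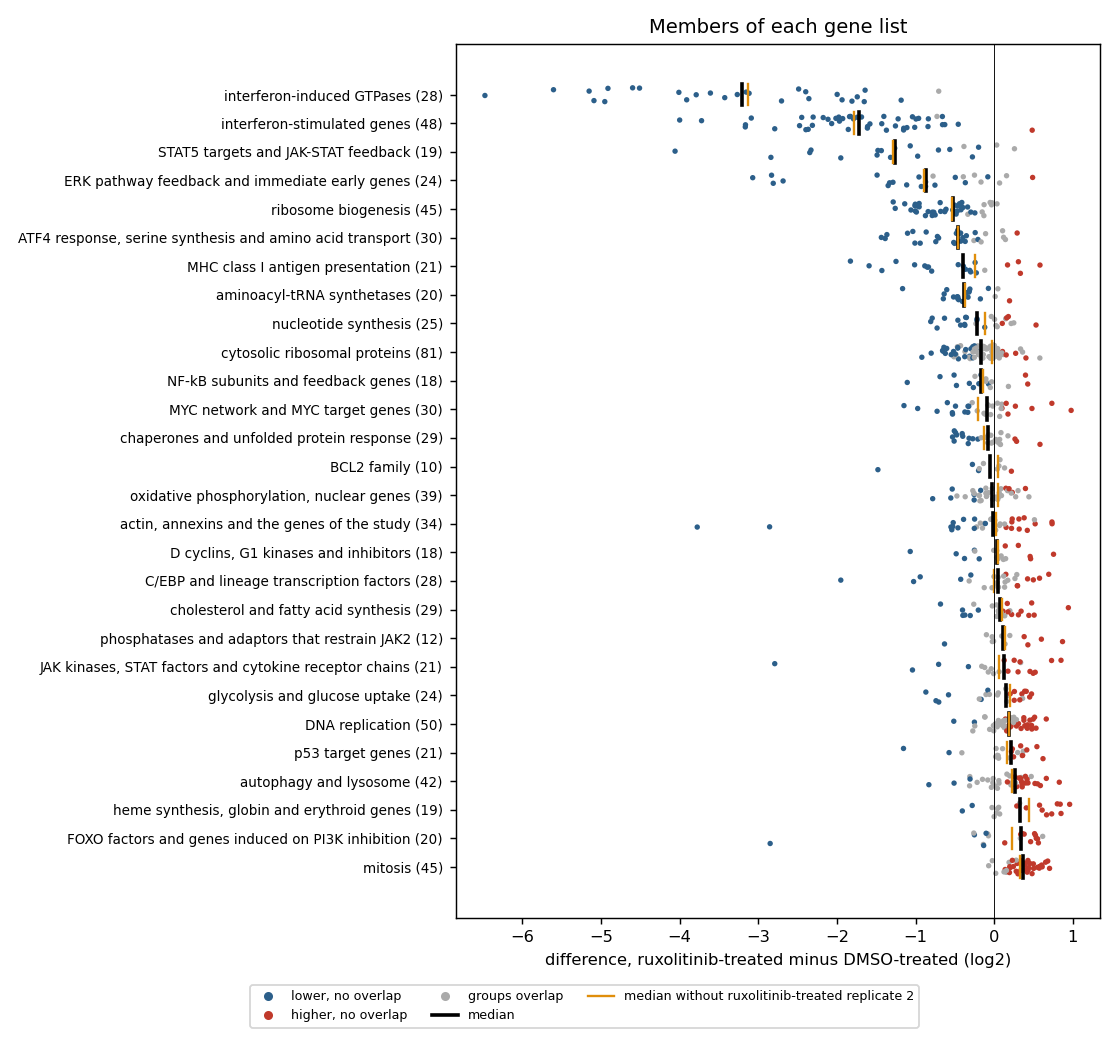
Each point is a gene and each line a gene list, with the number of measured genes in brackets and the difference, ruxolitinib-treated minus DMSO-treated, on the horizontal axis (log2). Blue and red points are lower and higher without overlap, grey points overlap, and the black and orange ticks are the list's median with and without ruxolitinib-treated replicate 2. The medians run from -3.21 for interferon-induced GTPases to 0.37 for mitosis genes.

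Ribosome biogenesis genes were lower by modest amounts. Of 45 measured genes 38 fell and 0 rose by limma-trend, 7 were called lower, and the median difference was -0.53. Gnl3, the gene of the nucleolar GTPase nucleostemin, had 845, 676 and 782 against 1680, 1906 and 1788 reads (difference -1.28 ± 0.10). Dkc1, the pseudouridine synthase dyskerin, had 880, 982 and 844 against 1973, 2254 and 1991 reads (difference -1.26 ± 0.07). Polr1b, a subunit of RNA polymerase I, fell by 1.14 ± 0.10 and the box C/D protein gene Nop56 by 1.00 ± 0.07. Other nucleolar genes did not move with them. Npm1 had 16925, 20287 and 16040 against 17851, 20675 and 18108 reads and Fbl had 1436, 1790 and 1675 against 1469, 1856 and 1553, with overlap in either gene. Of 81 cytosolic ribosomal protein genes 0 were called, with a median of -0.17. By limma-trend 8 fell and 0 rose, beside 13.8% and 10.6% of all genes. Without replicate 2, 25 fell and 6 rose, with a median of -0.03, and that library held the lowest share of such reads.

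The MYC network and MYC target genes split. Of 30 measured genes 12 fell and 3 rose by limma-trend, 1 was called lower, and the median was -0.10. Without ruxolitinib-treated replicate 2 the median was -0.207, 16 fell and 4 rose, and 2 were called lower and 1 higher. The called gene with all libraries was Srm, spermidine synthase, with 232, 288 and 253 against 509, 616 and 524 reads (difference -1.15 ± 0.10). The genes that rose were Mxd4, Mxi1 and Mxd3, whose products compete with MYC for its partner MAX. Mxd4 had 1092, 823 and 1006 against 424, 520 and 470 reads (difference 0.98 ± 0.12, limma-trend adjusted p = 0.000309), and Mxi1 had 1966, 2472 and 2176 against 1120, 1365 and 1326 (difference 0.73 ± 0.10). Max itself was at -0.04 and the target gene Odc1 at -0.12 ± 0.15.

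Genes of amino acid supply fell. In the list of ATF4 response, serine synthesis and amino acid transport genes, 23 of 30 measured genes fell and 0 rose, 6 were called lower, and the median was -0.45. Without replicate 2, 25 fell, 3 rose and 4 were called. Trib3, a pseudokinase gene induced by ATF4, had 471, 309 and 458 against 920, 1178 and 1084 reads (difference -1.43 ± 0.20). The cystine transporter gene Slc7a11 had 258, 255 and 218 against 514, 661 and 646 reads (difference -1.36 ± 0.09), and the glutamine transporter gene Slc1a5 had 703, 563 and 698 against 1197, 1387 and 1269 (difference -1.03 ± 0.11). Atf4 itself fell by 0.74 ± 0.10 and Asns, asparagine synthetase, by 0.44 ± 0.02. Of 20 measured aminoacyl-tRNA synthetases, which load tRNAs, 14 fell and 0 rose. Wars1, the member that interferon-γ also induces, was the called gene among them, with 2399, 2279 and 2328 against 4653, 5382 and 5067 reads (difference -1.16 ± 0.02).

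Other metabolic lists held 0 called genes, whether in nucleotide synthesis, glycolysis, cholesterol and fatty acid synthesis or oxidative phosphorylation. Their counts by limma-trend are to be read against the 13.8% and 10.6% of all genes that fell and rose. Of 25 nucleotide synthesis genes 11 fell and 1 rose, or 12 and 3 without replicate 2, and the median went from -0.22 to -0.11. The largest fall was that of Ctps, CTP synthase (difference -0.81 ± 0.07). Of 24 glycolysis genes 4 fell and 5 rose, or 6 and 12 without replicate 2. Pfkfb3, which makes the activator of phosphofructokinase, fell by 0.87 ± 0.05, while Aldoa, aldolase, rose by 0.48. Of 29 lipid synthesis genes 4 fell and 4 rose, and the desaturase gene Fads2 had the widest difference, with 3588, 4423 and 3427 against 1731, 2099 and 1856 reads (difference 0.94 ± 0.11, limma-trend adjusted p = 8.52e-05). Of 39 nuclear oxidative phosphorylation genes 2 fell and 0 rose, or 2 and 4 without replicate 2, with medians of -0.02 and 0.05. The 14 genes of the mitochondrial genome had a median difference of 0.57, but 0.18 without ruxolitinib-treated replicate 2, and 0 of them were called. Of 29 chaperone and unfolded protein response genes 11 fell and 2 rose, with a median of -0.07, or -0.13 without replicate 2.

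Mitosis genes were higher after ruxolitinib. Of 45 measured mitosis genes 27 rose and 0 fell by limma-trend, and 37 were higher without overlap, yet 0 were called, since all differences lay under 1 log2 unit. The median was 0.37, or 0.33 without ruxolitinib-treated replicate 2. They took 1.27% to 1.48% of reads in ruxolitinib-treated and 1.05% to 1.08% in DMSO-treated libraries. Plk1, a mitotic kinase, had 2129, 3086 and 2466 against 1371, 1703 and 1415 reads (difference 0.70 ± 0.16, 0.56 without replicate 2). Mki67, the proliferation antigen Ki-67, had 19829, 32966 and 19595 against 13610, 14704 and 14503 reads (difference 0.65 ± 0.25, 0.41 without replicate 2). The cyclin gene Ccnb1 had 2670, 2707 and 2547 against 1858, 2151 and 1988 reads (difference 0.34 ± 0.02), whereas its kinase Cdk1 overlapped, with 1422, 913 and 1345 against 1021, 1298 and 1223. In Plk1 and Mki67 the highest library was replicate 2, and in Cdk1 it was the lowest.

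Of 50 DNA replication genes 14 rose and 1 fell, with a median of 0.19, and 21 rose and 2 fell without replicate 2. Dnmt1, the maintenance DNA methyltransferase, had 5858, 6834 and 6327 against 3670, 4062 and 3783 reads (difference 0.66 ± 0.07). The helicase subunit gene Mcm2 rose by 0.45 ± 0.03 and Mcm5 was at 0.20 ± 0.11 (limma-trend adjusted p = 0.289). Of 18 measured G1 genes 3 fell (Ccnd2, Cdk6 and Cdc25a) and 3 rose (Cdkn1b, Cdkn2c and Rbl2). This stands beside the 13.8% and 10.6% of all genes that fell and rose. Without replicate 2 the counts were 5 and 3, and more of all genes passed too. Cdk6, the partner of D cyclins, had 2775, 3236 and 2786 against 3600, 4253 and 3945 reads (difference -0.48 ± 0.07), and Cdkn1b, the inhibitor p27, had 2943, 3265 and 2967 against 1948, 2331 and 2114 (difference 0.46 ± 0.05). Rbl2, a pocket protein of quiescent cells, rose by 0.76 ± 0.17.

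Genes that FOXO factors induce when PI3K signalling drops were higher in part. Of 20 measured genes 6 rose and 1 fell, with a median of 0.34. Without replicate 2, 9 rose and 3 fell, with a median of 0.23. Foxo3 had 1599, 1769 and 1558 against 957, 1150 and 1159 reads (difference 0.54 ± 0.07), and Ccng2, cyclin G2, had 1714, 1484 and 1536 against 967, 1117 and 990 (difference 0.56 ± 0.06). The exception was large. Irs2, an adaptor of insulin and IL-4 receptors, had 10, 6 and 9 against 57, 68 and 84 reads, a 7.20-fold fall (limma-trend adjusted p = 5.17e-05). Of 42 autophagy and lysosome genes 10 rose and 2 fell, with a median of 0.26, while 20 rose and 2 fell without replicate 2. Ulk1, the kinase that starts autophagy, had 815, 1215 and 982 against 481, 569 and 558 reads (difference 0.83 ± 0.17), while Ctss, cathepsin S, fell by 0.83.

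Erythroid genes were among the higher ones. Of 19 measured heme, globin and erythroid genes 10 rose and 1 fell, and the median was 0.32, or 0.44 without replicate 2, with 0 called, or 1 called higher without it. Klf1, the erythroid Krüppel-like factor, had 1041, 1192 and 1020 against 517, 589 and 496 reads (difference 0.96 ± 0.08, limma-trend adjusted p = 6.44e-05). Fech, ferrochelatase, had 572, 828 and 654 against 328, 403 and 358 reads (difference 0.84 ± 0.16). Alad, of heme synthesis, had 815, 843 and 862 against 458, 518 and 479 reads (difference 0.73 ± 0.03). Gata1, the master factor of the erythroid line, rose by 0.58 ± 0.07. The α-globin gene Hba-a1 had 7187, 3977 and 6983 against 2804, 3623 and 3265 reads, again with replicate 2 nearest to the controls (difference 0.80 ± 0.28, 1.08 without it).

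In the lists of NF-kB, p53 and lineage factors 1, 1 and 2 genes were called lower and 0 higher. The shares that passed limma-trend in either direction are to be read against the 13.8% and 10.6% of all genes that fell and rose. Of 18 NF-kB subunits and feedback genes 5 fell and 2 rose, and Nfkbid was the called gene (difference -1.10). Of 21 p53 target genes 2 fell and 4 rose, or 3 and 9 without replicate 2, with Tigar, a regulator of glycolysis, called lower (difference -1.15), while the classical targets Cdkn1a and Mdm2 stood at 0.05 and 0.25. Of 28 lineage transcription factors 5 fell and 4 rose, with a median of 0.05, or -0.0035 with 1 called gene without replicate 2. Beside Id1 only Nfil3, a basic leucine zipper factor gene, was called (difference -1.02), and Spi1, the gene of the myeloid factor PU.1, was at 0.26.

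The actin cytoskeleton and the genes that the study's text names with it were also followed. Serpina3g, a serine protease inhibitor gene (chr12:104236245-104241939, plus strand), had 245, 236 and 238 against 1492, 1769 and 1786 reads and fell 7.24-fold (limma-trend adjusted p = 1e-08). Its neighbour Serpina3f (chr12:104214544-104221129, plus strand) had 113, 115 and 77 against 1298, 1477 and 1256 reads and fell 13.7-fold (limma-trend adjusted p = 4.46e-08). They are near copies of each other and of Serpina3h, so counts of single members are uncertain. The remaining genes moved by under 1 log2 unit. Tgm2, transglutaminase, had 8647, 7972 and 8807 against 10665, 12616 and 11778 reads (difference -0.52 ± 0.05, limma-trend adjusted p = 0.00103). Actg1, γ-actin, had 4199, 3781 and 4001 against 5348, 6133 and 5370 reads (difference -0.55 ± 0.05, limma-trend adjusted p = 0.00052), with many pseudogene copies in the genome. Actb, β-actin, fell by 0.54 ± 0.09. Spp1, osteopontin, had 331, 355 and 280 against 356, 458 and 402 reads (difference -0.39 ± 0.10, limma-trend adjusted p = 0.0172). Of all 34 measured genes of this list 9 fell and 5 rose, beside 13.8% and 10.6% of all genes. The crosslinker gene Actn1 and the adhesion gene Vcl each rose by 0.74.

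Of the 34 genes called higher 0 belonged to any list, and 27 had a mean under 5 log2 CPM in DMSO-treated cells. The largest rise was that of Muc6, a gel-forming mucin gene (chr7:141633456-141655319, minus strand), with 1151, 3112 and 1431 against 471, 499 and 515 reads. Its difference was 1.74 ± 0.44, or 3.34-fold (limma-trend adjusted p = 0.00186), and 1.32 without replicate 2. Col5a1, a fibrillar collagen chain gene (chr2:27886425-28039514, plus strand, with 2810430I11Rik and Gm13372 on the other strand), had 4456, 5001 and 4783 against 1916, 2093 and 2010 reads. It rose 2.27-fold with a tight spread (difference 1.18 ± 0.06, limma-trend adjusted p = 3.5e-06). Art4, a surface ADP-ribosyltransferase gene, had 244, 365 and 263 against 126, 123 and 106 reads (difference 1.20 ± 0.21), and Stom, stomatin of the red cell membrane, had 123, 140 and 142 against 40, 92 and 49 (difference 1.16 ± 0.30). The zinc finger gene Zfp358 had 105, 200 and 145 against 40, 82 and 60 reads (difference 1.23 ± 0.35). In Muc6, Art4 and Zfp358 the highest library was replicate 2.

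Among the 15 largest rises several are short, overlapping or copied genes whose counts are uncertain. Gm28438 (88, 91 and 85 against 20, 43 and 22 reads) and Gm13340 (182, 403 and 171 against 98, 96 and 77) are near copies of the mitochondrial genes mt-Nd3 and mt-Co1, and Gm3226 (55, 247 and 93 against 37, 52 and 39) is a near copy of Tuba1b. Gm3226 was the gene called higher that did not pass limma-trend (difference 1.26 ± 0.63, adjusted p = 0.0578), and its difference was 0.68 without replicate 2. Naa80 (difference 1.16 ± 0.28) shares exons with Hyal1 and Hyal3. A130051J06Rik and 4933428P19Rik lie antisense to Ano6 and Kif1bp (differences 1.42 ± 0.19 and 1.29 ± 0.30). The others were Gm5559, a processed pseudogene, Gm50357, Gm45353 and the microRNA gene Mir8116, at 1.33, 1.40, 1.19 and 1.17. Without replicate 2 the differences of Gm13340, Gm45353, Mir8116 and Naa80 were 0.90, 0.93, 0.80 and 0.90, under the rule.

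Genes that only 1 of the tables listed were left out of the comparison, 244 in the ruxolitinib table and 46 in the table with DMSO. All were low. The highest were Snx29, 2010110K18Rik and Hdc in the former, with 64, 61 and 55, with 49, 70 and 48, and with 59, 54 and 47 reads. In the latter they were Camk2n2, Gm8093 and Aoc3, with means of 2.17, 1.98 and 1.96 log2 CPM in DMSO-treated cells. Whether such a gene was absent from the other group cannot be read from a table that does not list it.

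The CHZ868-treated cells (1 μM, 6 h, JAK2 inhibited in its inactive conformation) were compared with the same 3 DMSO-treated libraries, so values of the inhibitors share their controls and are given side by side only. Pim1 differed by -2.84 with ruxolitinib and -3.17 with CHZ868, Id1 by -1.95 and -2.22, Socs1 by -4.06 and -5.17, and Cish by -1.32 and -1.37. Iigp1 differed by -5.09 and -4.56, and Serpina3g by -2.86 and -2.29. The list medians were -1.26 and -1.15 for STAT5 targets, -3.21 and -3.05 for GTPases, 0.37 and 0.53 for mitosis genes, 0.13 and -0.10 for JAK, STAT and receptor genes, and -0.17 and 0.13 for cytosolic ribosomal proteins. Mitochondrial reads were 4.94% to 6.38% in CHZ868-treated libraries, against 1.37% to 1.43% with DMSO, and the median difference of the 14 mitochondrial genes was 0.57 with ruxolitinib and 2.38 with CHZ868, whose part in these values was not tested. Myc was at -0.97 and -0.25, Spp1 at -0.39 and 0.12, and Trib3 at -1.43 and -2.65. The difference between the inhibitors was not tested.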

How the data were processed

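RNA was sequenced from 21 libraries in 7 groups of 3, of which 6 are compared here. The authors deposited log2 CPM values in separate tables, filtered on low expression, with a gene list and a scale that differ by table. Their paper names kallisto on GRCm38, edgeR CPM and TMM scaling, while their processing notes name STAR 2.7.3a, edgeR 4.0.16 and GRCm39, so the aligner and build behind the log2 values are not settled. The library kit was strand-specific and the counting strand is not given in the sources used here.

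The deposited log2 CPM values include a constant that differs by table (0.2135 CPM with ruxolitinib, 0.222 CPM with DMSO), which moves the lowest values by at most 0.06 log2. The 6 libraries together would give 0.2137 CPM, and the 3 ruxolitinib-treated libraries alone 0.206 CPM. The ruxolitinib values may therefore have been scaled together with the DMSO-treated libraries, which was not tested. The constant was taken off, and 100% of values up to 20 reads then came out whole within 0.1 read, which gave 8308687 to 10266437 reads a library. The 11624 shared genes were centred on each library's median and described with no test, because tables on different scales are not tested against each other. Fold changes are on the log2(CPM + constant) scale and understate those of low genes. Beside them, log2 CPM was computed again from the reads with TMM scaling and 2 reads added in proportion to depth in every library, and tested with limma-trend (limma 3.58.1, R 4.3.3) with Benjamini-Hochberg adjustment, threshold 0.05. This step was tested on simulated data. Python 3.11.15, numpy 2.4.6 and pandas 2.3.3 were used. The tables of the washed groups were not used here.

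Genes were named by rule: Pim1, Pim2, Id1, Tgm2, Serpina3g, Spp1 and Actg1 from the study's text; the 15 largest called differences in each direction; in each list the members with the largest difference, then those that define it; and the 3 highest genes that only 1 table held. The members and gene lists were chosen with earlier results of these data known. Genes outside the rule (the mitochondrial genome, Gm26885 and the other partner genes named beside it, and those in the closing section) were chosen after their values were seen. Symbols were matched to GENCODE vM21 (11123 of 11624) and to RefSeq GRCm38.p6 promoter windows (8436). A near copy is a transcript with at least 90% identity over at least 25% of the longest transcript. Same-numbered libraries were checked for pairing. Alternatives changed the centring, the constant, the filter, the threshold, the trend, the block and the libraries used.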

Additional observations from a re-analysis of the deposited data

How the results depend on the processing

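Of 363 genes called, the count was 176 (172 lower, 4 higher) with log2(CPM + 5), 234 with a mean of at least 3 log2 CPM, and 1339 at a threshold of 0.58. Quantile normalization gave 359 (284 lower, 75 higher), a lower share of 79.1% against 90.6%, and leaving out 1 library gave 350 to 427. Genes without overlap numbered 5190, and 5871 to 6654 with 1 library fewer. Of 2834 genes past limma-trend, 1322 passed at an adjusted p of 0.01, and leaving out 1 library gave 1443 (without DMSO-treated replicate 2) to 4244 (without ruxolitinib-treated replicate 2), with 1534 and 1531 without DMSO-treated replicates 1 and 3. With the replicate block 2468 passed. Deviations of same-numbered libraries correlated at 0.018, -0.074 and -0.012, and those of differently numbered ones at -0.088 to 0.104. No pairing by number was seen, though such correlations cannot show that there was none. List medians that moved were, with log2(CPM + 5), -0.95 for STAT5 targets, -2.59 for GTPases, -1.43 for interferon-stimulated genes and -0.61 for ERK genes. With log2(CPM + 1) they were -3.02 for GTPases and -1.63 for interferon-stimulated genes. With the mean filter they were -3.35 for GTPases and -0.49 for ERK genes. Under quantile normalization they were 0.060 for JAK, STAT and receptor genes, -3.11 for GTPases, -0.60 for ribosome biogenesis, -0.16 for the MYC network, 0.32 for mitosis and 0.0056 for G1 genes. TMM centring gave 0.0835, -0.57 and 0.33 for the first, ribosome biogenesis and mitosis, -0.0023 for G1 genes and 0.28 for heme genes, and no centring gave 0.066 for G1 genes. Leaving out 1 library gave medians of 0.0632 to 0.164 for JAK, STAT and receptor genes, -1.79 to -1.69 for interferon-stimulated genes, -0.54 to -0.25 for class I presentation, -0.60 to -0.53 for ribosome biogenesis, -0.207 to -0.0723 for the MYC network, -0.24 to -0.11 for nucleotide synthesis, 0.33 to 0.45 for mitosis, 0.0291 to 0.0908 for G1 genes, -0.11 to 0.0529 for the BCL2 family, 0.23 to 0.34 for FOXO genes, 0.29 to 0.44 for heme genes and -0.0035 to 0.158 for lineage factors. Over all settings run, the sign of a median changed for oxidative phosphorylation, G1 genes, the BCL2 family, actin and annexin genes and lineage factors, and for no other list. Of 34 called genes in the rule for names, 13 lost the call with log2(CPM + 5), all of them rises, 5 without ruxolitinib-treated replicate 2, Stom without DMSO-treated replicate 1 and Gm5559 without DMSO-treated replicate 2. The constant weighs most on genes with few reads.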

Other observations

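Some genes outside the lists fell in the same way, chosen here after their values were seen. Ciita, the transactivator of MHC class II genes, had 62, 49 and 53 reads in ruxolitinib-treated and 431, 490 and 435 in DMSO-treated cells (difference -3.06 ± 0.10, limma-trend adjusted p = 2e-07). Gbp2b, a guanylate-binding protein gene, had 1624, 1892 and 1409 against 7735, 8823 and 7896 reads (difference -2.38 ± 0.12). The apolipoprotein L genes Apol9a and Apol9b, which resemble each other, differed by -3.56 ± 0.22 and -3.50 ± 0.19. Rnf213, a large ubiquitin ligase gene, had 4485, 4632 and 4037 against 10832, 11954 and 11672 reads (difference -1.45 ± 0.06).

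Mir17hg, the host gene of the miR-17-92 cluster, had 131, 73 and 94 against 408, 431 and 399 reads, a 4.38-fold fall (limma-trend adjusted p = 3.1e-05). Cd69, an early activation marker, had 38, 32 and 21 against 180, 209 and 166 reads (difference -2.62 ± 0.24). Tnfsf10, the death ligand TRAIL, had 32, 30 and 18 against 133, 215 and 194 reads (difference -2.74 ± 0.28). The growth factor gene Csf1 had 41, 55 and 52 against 127, 153 and 149 reads (difference -1.56 ± 0.13). Per2, of the circadian clock, had 55, 54 and 51 against 156, 238 and 229 reads (difference -1.96 ± 0.14). Of the genes with higher values, the chemokine receptor gene Cxcr4 had 1622, 2419 and 1814 against 778, 897 and 899 reads (difference 1.11 ± 0.18, 0.94 without replicate 2), and Asap1, which regulates ARF GTPases, had 4208, 5732 and 4122 against 1956, 2103 and 2101 (difference 1.11 ± 0.16, 0.96 without replicate 2).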
